A study of Homo sapiens with 6 samples.

Results

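T-cell receptor gene segments are the short stretches of the antigen receptor loci from which a T cell builds its receptor genes. They were taken as every row of the deposited count table whose biotype begins with TR_, which covers constant (C), diversity (D), joining (J) and variable (V) segments and their pseudogenes, and whose counts summed to more than 0 over the 6 libraries. Of 58735 genes in the table, 232 carried such a biotype and 96 of these had a count. By locus, the rows with counts were 26 of 115 for the alpha locus (TRA), 62 of 85 for the beta locus (TRB), 8 of 21 for the gamma locus (TRG) and 0 of 11 for the delta locus (TRD). Pseudogenes made up 11 of the 96. The rows just inside the threshold were TRBV23OR9-2, TRBV26OR9-2 and TRGJP, with a total of 1 count each, and the 136 rows just outside it had 0. The sum pools both groups, so it fixes which rows are described but not the difference between the groups.

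The libraries came from MOLT-3 cells, an established human line of T-cell acute lymphoblastic leukaemia, in a study that looked for genes under NOTCH1 control with a bearing on the response of such cells to chemotherapy. DMSO, the solvent, was given in 3 libraries and compound E in the other 3. Compound E inhibits gamma-secretase, the protease whose cleavage frees the active part of NOTCH receptors. Both groups are the same single line, dose and duration are not stated in the labels, and no allele is named in the labels for either group. The labels do not call the replicates separate cultures, so what the p-values weigh is the spread among these libraries, and that spread may be technical.

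As background, a developing T cell cuts and rejoins V, D and J segments with the RAG1 and RAG2 proteins, which removes or inverts the DNA in between, and the joined exon is spliced to a C segment. Beta and delta chains use D segments, and alpha and gamma chains do not. The beta chain first pairs with the invariant pre-T alpha chain and later with an alpha chain. The delta segments lie inside the alpha locus on chromosome 14, and the beta and gamma loci lie apart on chromosome 7. A segment that has not been joined can also be transcribed, and its row then counts unjoined RNA.

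The sequences of some alpha and beta J rows with many counts or near a silent interval are shown first, with those of leading V rows and beta constant genes. They are given because the account turns on which of these segments were transcribed. They come from GENCODE release 29 transcripts on GRCh38 and are written 5′ to 3′ in the direction of the gene. In J segments the capitals mark the conserved motif of a phenylalanine or tryptophan codon, a glycine codon and a second glycine, searched as TTTGGNNNNGG, TTCGGNNNNGG and TGGGGNNNNGG on both strands.
TRAJ33, chr14:22508602-22508658, plus strand: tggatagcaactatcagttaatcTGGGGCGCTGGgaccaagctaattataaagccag
TRAJ10, chr14:22533497-22533560, plus strand: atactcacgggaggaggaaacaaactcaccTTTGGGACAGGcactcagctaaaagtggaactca
TRAJ7, chr14:22537622-22537680, plus strand: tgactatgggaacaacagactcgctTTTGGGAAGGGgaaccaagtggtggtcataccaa
TRBJ2-1, chr7:142796365-142796414, plus strand: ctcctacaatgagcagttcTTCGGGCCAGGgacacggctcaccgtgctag
TRBJ2-3, chr7:142796847-142796895, plus strand: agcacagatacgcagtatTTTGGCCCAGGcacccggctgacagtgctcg
TRBJ2-6, chr7:142797239-142797291, plus strand: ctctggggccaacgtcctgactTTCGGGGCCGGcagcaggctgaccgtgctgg
TRBJ2-7, chr7:142797456-142797502, plus strand: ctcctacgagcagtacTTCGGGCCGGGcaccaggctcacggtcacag

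Of the 83 J rows of the 4 loci, 62 (74.7%) held TTTGGNNNNGG, 11 (13.3%) held TTCGGNNNNGG and 3 (3.61%) held TGGGGNNNNGG. Together 76 (91.6%) held a motif, none of the 83 held more than 1, and none held one on the other strand. TRAJ33 carried the rare tryptophan form. TRGJP2, the gamma J row with the most counts and not shown here, held none of these motifs.

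The last 60 bases of the leading V row of each transcribed locus follow, with the last in-frame cysteine codon, TGT or TGC, in capitals.
TRAV1-1, chr14:21622508-21622567, plus strand: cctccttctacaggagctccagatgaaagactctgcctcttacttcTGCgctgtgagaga
TRBV20-1, chr7:142627340-142627399, plus strand: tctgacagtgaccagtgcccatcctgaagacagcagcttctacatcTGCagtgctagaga
TRGV2, chr7:38362864-38362923, minus strand: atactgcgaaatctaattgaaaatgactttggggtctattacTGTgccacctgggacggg
The first 60 coding bases of the paired beta constant genes are given because reads can be hard to place between them, with the 3 bases that differ in capitals.
TRBC1, chr7:142791694-142791753, plus strand: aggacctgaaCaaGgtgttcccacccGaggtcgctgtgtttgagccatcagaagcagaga
TRBC2, chr7:142801041-142801100, plus strand: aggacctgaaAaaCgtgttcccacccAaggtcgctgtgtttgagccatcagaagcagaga

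Library totals ran from 17316138 to 19845114 counts, so a count of 0 allows up to 3 counts, or 0.151 to 0.173 CPM per library. CPM are counts scaled to a common library size with TMM factors. Intervals of this kind cover counting error only. All 8 T lineage markers were present, with summed levels of 2302 to 2349 CPM with DMSO and 2121 to 2168 CPM with compound E. Markers of other blood lineages were low in sum. With DMSO and with compound E, the 5 B lineage markers summed to 14.2 to 15.4 and 13.6 to 15.04 CPM. Nearly all of this was CD79A, with means of 13.2 and 13.6 CPM, while MS4A1 and PAX5 were at 0. The 5 NK markers summed to 1.24 to 1.61 and 0.875 to 1.83 CPM, with NCR1 at 0. The 5 myeloid markers summed to 2.80 to 2.98 and 2.32 to 2.74 CPM, with MPO at 0. Most of the myeloid sum was ITGAM, with means of 2.19 and 2.03 CPM.

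The 3 transcribed loci differed in level and in direction. Alpha segments were low with DMSO and rose with compound E, beta segments were abundant in both groups and moved little as a sum, and gamma segments were near the limit of detection and lower with compound E. Summed over its rows, TRA stood at 37.1, 39.9 and 38.7 CPM with DMSO and at 106, 112 and 110 CPM with compound E, a ratio of means of 2.84. TRB stood at 5169, 5136 and 5247 CPM with DMSO and at 5457, 5423 and 5551 CPM with compound E, a ratio of 1.06. TRG stood at 3.99, 3.99 and 3.70 CPM with DMSO and at 0.656, 0.830 and 1.06 CPM with compound E, 4.58-fold lower. In none of the 3 sums did the groups overlap, and no test was made of a sum.

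**Figure D1:**
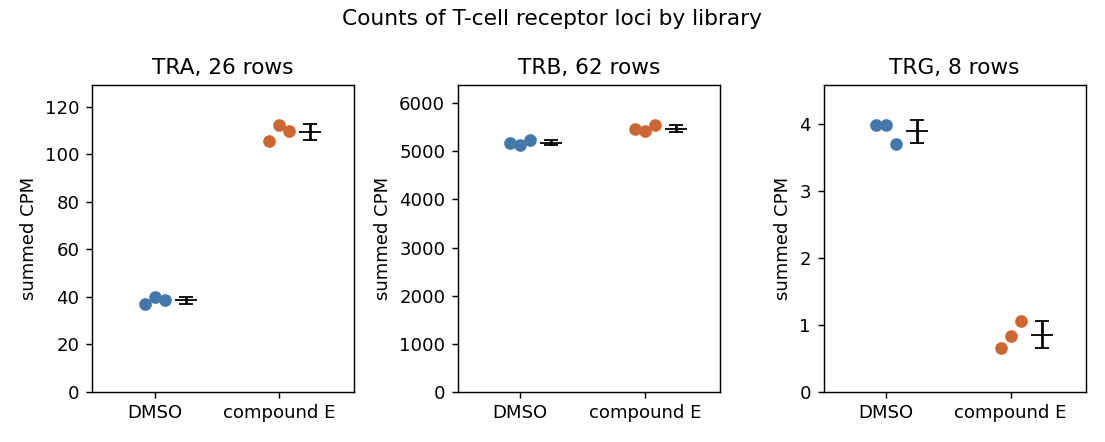
Summed CPM of the TRA, TRB and TRG rows in each of the 6 libraries, with DMSO and compound E side by side and 1 panel per locus. Points are libraries and bars the mean with its SD (n = 3); TRA went from 38.5 ± 1.39 to 109 ± 3.34, TRB from 5184 ± 57.3 to 5477 ± 66.6 and TRG from 3.89 ± 0.167 to 0.8496 ± 0.204.

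Beta rows held 99.2% ± 0.0307 (SD, n = 3) of all T-cell receptor counts with DMSO and 98.0% ± 0.0677 with compound E. The share of alpha rows went from 0.737% ± 0.0295 to 1.96% ± 0.0669. RNA was taken from whole cultures, where fewer cells of a type and less RNA per cell cannot be told apart.

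Row by row, edgeR's quasi-likelihood test could be run on 42 of the 96 segments, and at an adjusted p under 0.05 it called 19 higher and 7 lower with compound E. That is 45.2% higher and 16.7% lower, against a background of 18.9% higher and 19.4% lower among all 16926 tested genes, and 38.3% in either direction. The groups did not overlap in 28 of the 42, or 66.7%, against 46.8% of all tested genes. The median log2 fold change was 0.18 over the 42 and -0.0034 over all tested genes. These counts lean on the filter for low counts, since 15 of the 42 passed it through the level of 1 group alone, 10 TRA J rows through compound E and TRGC1, TRGV2, TRBV5-3, TRBV5-6 and TRBV7-4 through DMSO. The other 54 rows had totals of 1 to 85 counts and no test.

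**Figure D2:**
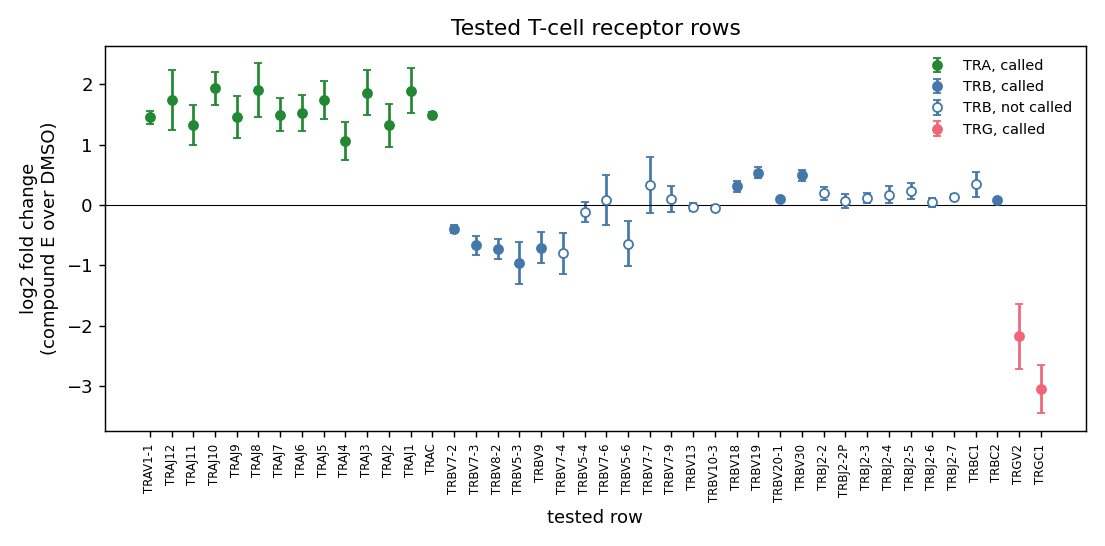
Log2 fold change, compound E over DMSO, of the 42 tested segment rows, grouped by locus, with the standard error as a bar. The 14 TRA rows all lie above 0, the 26 TRB rows lie on both sides from -0.96 to 0.53, and both TRG rows lie below -2.

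In the alpha locus, the constant gene and the only V row with counts rose by nearly the same factor. TRAC (ENSG00000277734, chr14:22547506-22552154), which encodes the constant domain of the alpha chain, was measured at 24.1, 26.7 and 25.9 CPM with DMSO and at 67.5, 73.5 and 75.2 CPM with compound E. The highest DMSO library lay well under the lowest compound E library. The log2 fold change was 1.49 ± 0.0535 (SE), 2.82-fold (edgeR adjusted p = 2.76e-24). TRAV1-1 (ENSG00000255569, chr14:21621838-21622567), the first V segment of the locus, was at 5.85, 5.35 and 5.49 CPM with DMSO and at 16.7, 15.04 and 14.03 CPM with compound E. Its groups were also apart, with a log2 fold change of 1.45 ± 0.105 (edgeR adjusted p = 1.14e-14). Per length, TRAC rose from 26.0 to 73.5 FPKM and TRAV1-1 from 14.1 to 38.7 FPKM, group means of 3 libraries.

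The other 53 alpha V rows had 0 counts. Between the end of TRAV1-1 and the start of TRAJ33 lie 886 kb with 92 segment rows, all 11 TRD rows among them, and 13 rows of other genes, and not 1 of these rows had a count in any library. The TRAJ33 row itself held 3, 3 and 2 counts with DMSO and 9, 5 and 1 counts with compound E, too few for a test. The next 8 J rows towards the constant gene, over 11.3 kb, were again at 0. From TRAJ24, with 1, 1 and 0 counts against 0, 1 and 1, every row had counts down to TRAC, 22 of 22 over 27.5 kb. Segments were thus counted at the 2 ends of a silent stretch and beyond a second, shorter one. Whether DNA was removed there was not tested, since the tables hold counts of RNA only.

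**Figure D3:**
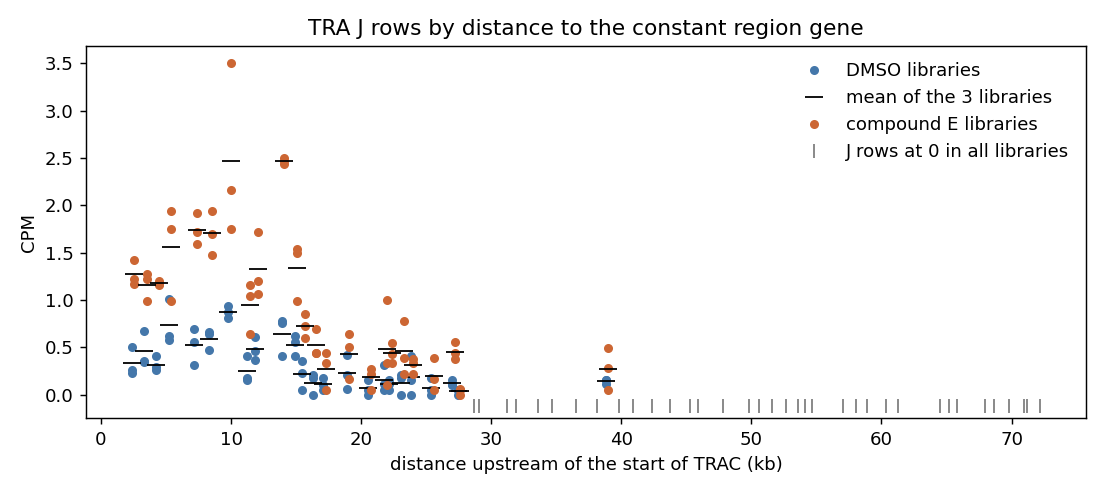
CPM of the 24 TRA J rows with counts in each library against their distance upstream of the start of TRAC in kilobases, DMSO in blue and compound E in orange, with black dashes for group means and grey ticks for the 36 J rows at 0. Levels are highest within about 16 kb of TRAC, compound E means lie above DMSO means in 24 of 24 rows, and TRAJ33 stands alone at 38.9 kb. TRAJ24 had 2 counts in each group and lies above by scaling alone, and the groups overlap in several of the low rows.

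All 12 tested TRA J rows were called higher, with log2 fold changes from 1.06 to 1.94, or 2.09-fold to 3.83-fold, in a range of 1 to 64 counts per library. Of these 12, 10 passed the filter for low counts through the compound E level alone, which favoured a rise. The count of 12 of 12 is therefore no separate support, and only TRAJ4 and TRAJ7 passed in both groups. TRAJ10 had the largest rise, from 15, 8 and 13 counts with DMSO to 45, 44 and 47 with compound E, a log2 fold change of 1.94 ± 0.272 (edgeR adjusted p = 2.27e-07). TRAJ7, the J row with the most counts, went from 18, 16 and 15 counts to 64, 39 and 33, with a log2 fold change of 1.499 ± 0.272 (edgeR adjusted p = 2.13e-05). Both lie between TRAJ33 and TRAC. TRAJ4 had the smallest rise of the tested rows, from 12, 20 and 10 counts to 18, 35 and 33, and it was the only tested alpha row whose groups overlapped, at 1.06 ± 0.312 (edgeR adjusted p = 0.00600).

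The remaining tested alpha J rows rose by log2 values of 1.90 for TRAJ1, 1.32 for TRAJ2, 1.86 for TRAJ3, 1.74 for TRAJ5, 1.53 for TRAJ6, 1.90 for the pseudogene TRAJ8, 1.46 for TRAJ9, 1.32 for TRAJ11 and 1.74 for TRAJ12. TRAJ12 had the largest error of these, ± 0.496 with an edgeR adjusted p of 0.00479, and leaving out DMSO replicate 1 ended its call, at an adjusted p of 0.0555. Without DMSO replicate 2 its log2 fold change was 2.35. The 12 J rows outside the test, which begin 16.4 kb from TRAC, held 31, 24 and 28 counts in sum with DMSO and 75, 90 and 58 with compound E. Their summed level went from 1.48 ± 0.232 to 4.05 ± 0.949 CPM (SD, n = 3), 2.74-fold, against 5.92 ± 0.603 to 17.9 ± 0.855 CPM, 3.02-fold, for the 12 tested rows. The sum of the rows too low to test was thus also higher in each compound E library than in any DMSO library.

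The make-up of the alpha counts stayed within its spread while the level rose. V rows held 14.47% ± 1.205 (SD, n = 3) of TRA counts with DMSO and 13.98% ± 1.58 with compound E, J rows 19.2% ± 0.397 and 20.1% ± 1.33, and TRAC 66.3% ± 1.09 and 65.9% ± 2.43. Across the 24 J rows with counts, the total fell with distance from TRAC, with Pearson's r = -0.75 and Spearman's rho = -0.80 on the log2 total. This is across rows that share libraries and neighbourhood, so it is given as a description.

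In the beta locus most counts came from 1 V row and the second constant gene, and these changed little. The J rows, all of the second cluster, summed to 106 CPM with DMSO and 115 CPM with compound E. That was less than the 203 and 198 CPM of the V rows other than TRBV20-1. TRBV20-1 (ENSG00000211747, chr7:142626649-142627399) was at 2042, 1977 and 2093 CPM with DMSO and at 2224, 2180 and 2130 CPM with compound E. The groups did not overlap, but lay close, at a log2 fold change of 0.10 ± 0.0234, 1.07-fold (edgeR adjusted p = 9.92e-04). With limma on log2 FPKM the call was lost, at adjusted p = 0.318 with a pseudocount of 1 and 0.211 with 0.1. TRBV20-1 held 90.9% ± 0.384 of the beta V counts with DMSO and 91.7% ± 0.212 with compound E (SD, n = 3).

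TRBC2 (ENSG00000211772, chr7:142801041-142802748), the constant gene downstream of the second J cluster, was at 2818, 2843 and 2844 CPM with DMSO and at 2914, 2937 and 3100 CPM with compound E. It ranked 12th of all 58735 genes by count and 6th by FPKM, and TRBV20-1 ranked 20th and 5th. The TRBC2 groups were apart with a log2 fold change of 0.07 ± 0.0226, 1.05-fold (edgeR adjusted p = 0.00865), a call that was lost without compound E replicate 3, the highest library, at an adjusted p of 0.0590. Per length the deposited FPKM of TRBC2 went from 3706 ± 13.6 to 3919 ± 135 and that of TRBV20-1 from 4888 ± 140 to 5250 ± 109 (SD, n = 3). With limma on log2 FPKM, TRBC2 was not called, at adjusted p = 0.373 with a pseudocount of 1 and 0.278 with 0.1.

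TRBC1 (ENSG00000211751, chr7:142791694-142793368), the constant gene downstream of the first J cluster, held 39, 38 and 36 counts with DMSO and 53, 44 and 43 with compound E. It made up 0.0707% ± 0.00296 and 0.0853% ± 0.0131 of beta constant counts (SD, n = 3). In CPM the TRBC1 groups did not overlap, but the log2 fold change of 0.34 ± 0.202 was not called (edgeR adjusted p = 0.193). The coding parts of TRBC1 and TRBC2 are 96.6% identical, with a longest identical run of 173 bases, and how reads with several matches were counted is not given, so the small TRBC1 count is uncertain.

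All 6 rows of the first J cluster and the D row were at 0. From the end of TRBV20-1 to the start of TRBC1, over 164 kb, there are 18 segment rows and 6 rows of other genes, and none had a count in any library. All 8 J rows between TRBC1 and TRBC2 had counts. TRBJ2-7 led with 40.1% ± 1.64 of beta J counts with DMSO and 40.5% ± 3.49 with compound E, before TRBJ2-6 with 20.6% and 19.5% and TRBJ2-3 with 14.9% in both groups. TRBJ2-1, the first of the cluster, held 1, 1 and 6 counts with DMSO and 2, 4 and 4 with compound E. J rows are about 50 bases long and a read across a joint may be given to the V or the C row or to none, so these shares do not by themselves name the joined J segment.

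None of the 7 tested beta J rows was called, and their log2 fold changes ran from 0.04 to 0.23, all above 0. TRBJ2-7 was at 42.9, 44.0 and 40.7 CPM with DMSO and at 42.9, 46.0 and 50.9 CPM with compound E, with overlap at the lower end. Its log2 fold change of 0.13 ± 0.0548 missed the threshold (edgeR adjusted p = 0.0582), and was past it without compound E replicate 1, at an adjusted p of 0.0113. TRBJ2-6 and TRBJ2-3 had log2 fold changes of 0.04 and 0.12 (edgeR adjusted p = 0.682 and 0.260).

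**Figure D4:**
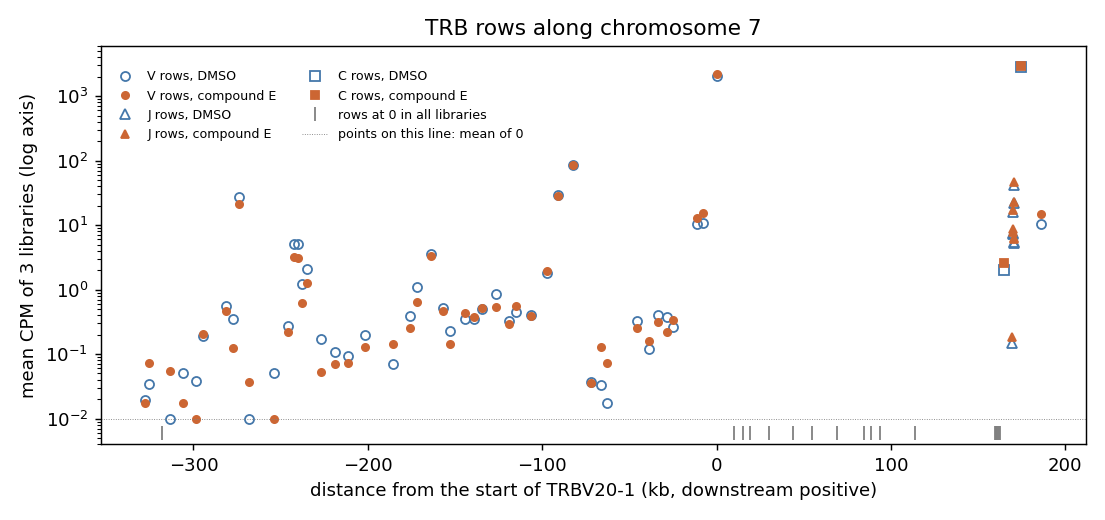
Mean CPM of 3 libraries on a log axis for the beta rows on chromosome 7 against distance from the start of TRBV20-1 in kilobases, DMSO open and compound E filled, with circles for V, triangles for J and squares for C; grey ticks are rows at 0 in every library, and points on the dotted line have a mean of 0 in that group. Low levels extend over the upstream V rows, TRBV20-1 and TRBC2 stand far above all other rows, and the stretch of 164 kb between TRBV20-1 and TRBC1 holds ticks only.

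Upstream of TRBV20-1 nearly the whole V array was detected at low level, 46 of the 47 segment rows over 327 kb, with TRBV3-1 at 0. The 51 beta V rows besides TRBV20-1 summed to 203 ± 4.93 CPM with DMSO and 198 ± 2.26 with compound E (SD, n = 3). The groups overlapped in this sum, since DMSO replicate 1 stood at 198.1 CPM, below compound E replicates 1 and 3. The sum also holds rows on chromosome 9 and TRBV30, downstream of TRBC2, which went from 10.5 to 14.7 CPM. Upstream rows were not summed alone, so the overlap does not describe them. Within this sum single rows moved in opposite directions. Of 17 tested beta V rows, 4 were called higher and 5 lower, and 8 were not called, with log2 fold changes from -0.81 to 0.33 among those.

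The 3 V rows called higher besides TRBV20-1 lie next to it or beyond the constant genes. TRBV19, 7.80 kb upstream of TRBV20-1, went from 9.43, 12.1 and 10.9 CPM to 15.6, 15.2 and 16.2 CPM, with a log2 fold change of 0.53 ± 0.0914 (edgeR adjusted p = 8.55e-06). TRBV18, 10.9 kb upstream, went from 9.79, 11.6 and 10.3 CPM to 13.2, 13.3 and 12.8 CPM, at 0.31 ± 0.0930 (edgeR adjusted p = 0.00770, and 0.0514 without DMSO replicate 1). TRBV30 (chr7:142812586-142813399), the V segment that lies in inverted orientation downstream of TRBC2, went from 9.53, 11.4 and 10.6 CPM to 13.8, 15.04 and 15.3 CPM, at 0.49 ± 0.0913 (edgeR adjusted p = 3.22e-05). In each of these 3 rows all compound E libraries were above all DMSO libraries.

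The 5 V rows called lower lie together, 235 to 274 kb upstream of TRBV20-1. TRBV7-2, with the most counts of them, went from 26.9, 27.3 and 28.9 CPM to 21.3, 21.2 and 20.3 CPM, with a log2 fold change of -0.40 ± 0.0640, 1.32-fold lower (edgeR adjusted p = 2.51e-06). TRBV7-3 went from 4.51, 5.50 and 5.09 CPM to 2.95, 3.71 and 2.82 CPM, at -0.67 ± 0.159 (edgeR adjusted p = 7.43e-04), and the pseudogene TRBV8-2 from 4.56, 4.79 and 5.84 CPM to 2.57, 2.82 and 3.72 CPM, at -0.73 ± 0.165 (edgeR adjusted p = 4.55e-04). These 3 rows had no overlap between groups. TRBV9, at -0.71 ± 0.261 (edgeR adjusted p = 0.0291), overlapped, and its call was lost without DMSO replicate 1 (adjusted p = 0.243), without compound E replicate 2 (0.151) and without compound E replicate 3 (0.0868). TRBV5-3, at -0.96 ± 0.349 (edgeR adjusted p = 0.0268), lost its call without DMSO replicate 1 (0.180) and without compound E replicate 2 (0.189). TRBV5-3 passed the filter through the DMSO level alone, which favoured a fall. DESeq2 did not call TRBV9 or TRBV5-3, at adjusted p = 0.108 and 0.101.

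**Figure D5:**
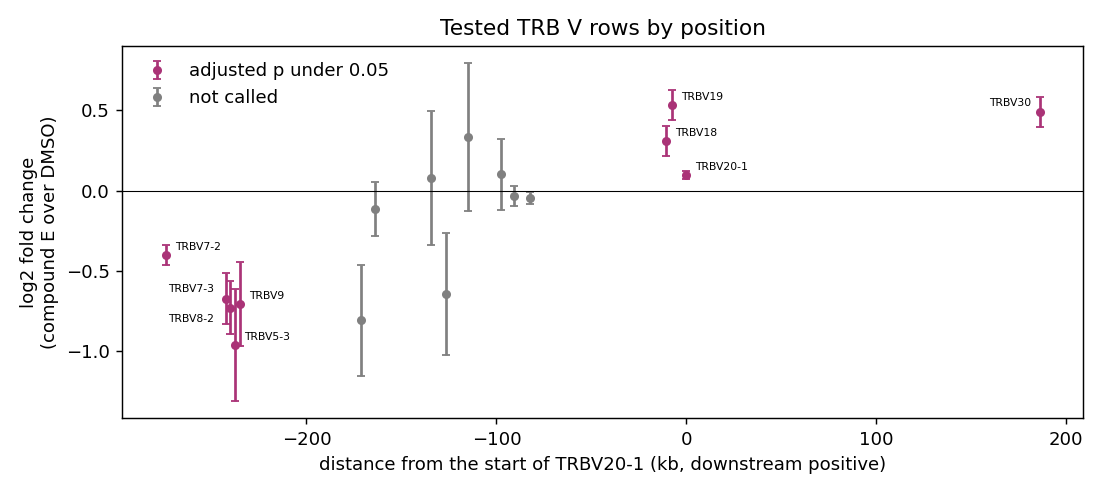
Log2 fold change, compound E over DMSO, with its standard error, of the 17 tested beta V rows against distance from the start of TRBV20-1 in kilobases; rows called at an adjusted p under 0.05 are purple and named, others grey. Called falls lie 235 to 274 kb upstream, called rises within 10.9 kb of TRBV20-1 or, for TRBV30, 186 kb downstream.

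The V rows with the most counts between these ends had differences near 0. TRBV10-3, 82.4 kb upstream, held 3.87% of beta V counts with DMSO and 3.54% with compound E. It stood at 85.7, 87.9 and 86.5 CPM with DMSO and at 84.3, 84.5 and 83.4 CPM with compound E, without overlap. Its log2 fold change of -0.05 ± 0.0374 was not called (edgeR adjusted p = 0.369). TRBV13, 90.8 kb upstream, stood at 28.2, 29.7 and 28.6 against 29.3, 25.7 and 29.5 CPM, with overlap, at -0.04 (edgeR adjusted p = 0.701). Tested rows with fewer counts in this stretch varied more, and none was called. TRBV7-4 had -0.81 ± 0.344, TRBV5-6 -0.64 ± 0.377 and TRBV5-4 -0.12, while TRBV7-7, TRBV7-9 and TRBV7-6 had 0.33, 0.10 and 0.08. Over the 16 tested V rows at or upstream of TRBV20-1, the log2 fold change fell with distance, with Pearson's r = -0.81 and Spearman's rho = -0.77. This is a description across rows of the same libraries. TRBV5-6, TRBV7-4 and TRBV5-3, at 127, 171 and 237 kb, passed the filter through the DMSO level alone, which favoured falls. The correlation is therefore not independent of the filter. Among V rows below the filter, the 15 that lie more than 200 kb upstream held 42, 41 and 38 counts with DMSO and 14, 32 and 39 with compound E, and the 16 nearer rows 88, 85 and 65 against 80, 66 and 76. Compound E replicate 1 was the low library in the far set, and the groups overlapped in both sets. Beta V genes of a family share sequence, so the split of reads among TRBV5, TRBV6 and TRBV7 members is uncertain.

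In the gamma locus all 8 rows with counts had lower means with compound E, at 77, 79 and 64 summed counts with DMSO and 12, 15 and 20 with compound E. Of these rows, TRGJP2, TRGJP, TRGV4 and TRGV1 had 1 to 10 counts in total, all with DMSO, so their lower means rest on few counts. The 8 of 8 is therefore no separate support for a fall across the locus. TRGC1 (ENSG00000211689, chr7:38257879-38265678), 1 of the paired gamma constant genes, held 24, 35 and 37 counts with DMSO and 3, 2 and 6 with compound E. The groups were far apart, with a log2 fold change of -3.06 ± 0.402, 8.32-fold lower (edgeR adjusted p = 5.77e-08). TRGV2 (ENSG00000233306, chr7:38362864-38363518), a V segment, held 13, 15 and 15 counts with DMSO and 0, 6 and 3 with compound E, at -2.18 ± 0.540, 4.53-fold lower (edgeR adjusted p = 0.00123). The size of that fall depended on single libraries, as the log2 fold change was -3.13 without compound E replicate 2, the highest of its group, and -1.62 without compound E replicate 1, which had 0 counts. TRGC1 and TRGV2 passed the filter only through the DMSO level, which favoured a fall. That both tested gamma rows fell is therefore no separate support for a fall across the locus.

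TRGC2, the other gamma constant gene, held 27, 25 and 8 counts with DMSO and 8, 7 and 10 with compound E, with overlap and no test. Its coding part is 98.5% identical to that of TRGC1, with a longest identical run of 116 bases, so reads may have been split between them. TRGJP2, a J segment in front of TRGC2, held 6, 3 and 1 counts against 0 in each compound E library, and TRGV1 held 3, 0 and 2 counts against 0. TRGJ2 held 1, 1 and 1 against 1, 0 and 1, and TRGJP and TRGV4 had counts in DMSO replicate 1 alone, 1 and 2. TRGV1, TRGV2 and TRGV4 overlap the antisense gene TRG-AS1, which held 1 count in 1 library, and no other segment with counts overlapped another gene.

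In the delta locus all 11 rows, 3 V, 3 D, 4 J and 1 C, were at 0 in all 6 libraries, which allows up to 0.151 to 0.173 CPM per library.

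The flanks of the loci were read from the nearest tested protein-coding gene on each side, a choice made after the data were seen. DAD1, a subunit of the oligosaccharyltransferase that lies 12.8 kb past TRAC, went from 42.3 ± 0.758 to 54.4 ± 2.80 CPM (SD, n = 3), a log2 fold change of 0.36 ± 0.0492 (edgeR adjusted p = 1.17e-07), a smaller value than the 1.49 of TRAC. On the other side of the locus SALL2, 84.6 kb away, had a value of 0.06 and was not called (edgeR adjusted p = 0.318). EPHB6, an Eph family receptor 41.7 kb past the beta locus, rose by 0.22 ± 0.0254 on the log2 scale (edgeR adjusted p = 3.71e-09), and TAS2R5, a taste receptor gene 508 kb away on the other side, had -0.24 at a low level and was not called (edgeR adjusted p = 0.682). STARD3NL, 8.91 kb from TRGC2, fell from 35.0 ± 0.915 to 27.5 ± 1.27 CPM, a log2 fold change of -0.35 ± 0.0576 (edgeR adjusted p = 5.22e-06), and VPS41, 355 kb away on the other flank, had -0.22 (edgeR adjusted p = 2.82e-04). The difference between a segment and its neighbour was not tested.

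Genes whose products join, carry or control these segments were read from 3 lists, with called shares to be set against the same 18.9% higher and 19.4% lower. Of 5 proteins that pair with the receptor chains, CD247 (the zeta chain) was called higher, by 0.30 on the log2 scale (edgeR adjusted p = 1.71e-11). CD3D, CD3E and PTCRA, the pre-T alpha chain, were called lower, with log2 fold changes of -0.34, -0.18 and -0.69, and CD3G had -0.05 and was not called. The median was -0.18. Thus the partner that precedes the alpha chain was lower in the libraries in which alpha rows were higher.

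Of 14 tested genes of the joining reaction, 9 were called higher and 5 were not called, with a median log2 fold change of 0.27. RAG1 and RAG2, which cut next to the segments, had log2 fold changes of 1.53 (edgeR adjusted p = 7.97e-36) and 0.79 (6.11e-18), DNTT, which adds bases at the joints, 0.43 (1.51e-15), and HMGB2, a DNA-bending cofactor, 0.53 (8.80e-21). Of 16 regulators of the loci, 12 were called higher and 4 lower, with a median of 0.12. GATA3, RUNX1 and SATB1, which bind T-cell genes, had 0.74, 0.45 and 0.65. IL7R, the receptor whose signal opens the gamma locus in mice, had -2.43 and went from 36.6 to 6.77 CPM (edgeR adjusted p = 4.81e-25), and MYB, STAT5A and STAT5B were the other 3 called lower. These values stand beside those of the segments, and their part in the segment changes was not tested.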

How the data were processed

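RNA sequencing libraries of polyadenylated RNA, made with an NEBNext Ultra kit per the labels, were compared between DMSO and compound E, 3 each. The deposited tables held whole-number counts per gene, not normalised by the authors, and FPKM, which the authors derived from counts and gene length. The submitters' processing notes name HISAT2 2.0.5, featureCounts 1.5.0-p3 and DESeq2 1.16.1 with no role. Genome build, strand setting and the handling of reads that match several places: not given in the sources used here. All 58735 identifiers matched GENCODE release 29 in name, start and end, hence coordinates on GRCh38.

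Counts were fitted in R 4.3.3 with edgeR 4.0.16 (filterByExpr, TMM, quasi-likelihood F-test, with treatment alone in the model). Adjustment was by Benjamini-Hochberg across 16926 genes, and an adjusted p under 0.05 was a call. The standard error is the log2 fold change over the square root of F. The script was tested on simulated data. Locus sums, shares and positions were described without a test. Depth was 17316138 to 19845114 counts per library.

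The text names constant genes, the 3 highest V and J rows per locus, called segments, and up to 4 called genes per list with the smallest p; segments at interval edges, the other members given by value, list members beyond those 4 and neighbouring genes were chosen after their values were seen. Members and lists were chosen with earlier results of these data known. Recombination signals were not analysed here, and J motifs were read from transcripts instead, with Python 3.11.15; figures used matplotlib 3.10.9. Alternatives were other scalings (RLE, upper quartile, library size), DESeq2 1.42.0, limma-voom (limma 3.58.1), limma on log2 FPKM at pseudocounts 1 and 0.1, no filter, at least 5 CPM in each of 3 libraries, a replicate block, and each library left out.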

Additional observations from a re-analysis of the deposited data

How the results depend on the processing

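Of the 42 tested segments, 19 were called higher and 7 lower. With at least 5 CPM required in 3 libraries these were 7 and 1, since fewer rows were tested. Leaving out each library in turn gave 17 to 20 higher and 5 to 9 lower. DESeq2 gave 19 and 5, limma-voom 19 and 7, no filter 24 and 9, and limma on log2(FPKM + 1) 18 and 5. With the replicate number as a block the counts were 19 and 7. The replicate numbers showed no pairing of the libraries. Deviations of same-numbered libraries from their group means correlated at 0.01, -0.051 and 0.008 over 11033 genes, and no library was closest to its own number. Such values cannot exclude that same-numbered libraries were handled together. The log2 ratio of the TRA sum ran from 1.48 to 1.55 over its alternatives. Of 44 named genes, 34 kept both direction and side of the threshold in every alternative that gave a value, and 8 lost or gained a call in at least 1. The other 2, neither of them called, changed sign: leaving out single libraries, TRBV13 had log2 fold changes from -0.0699 to 0.0284, the latter without compound E replicate 2, and TRBJ2-6 from -0.0379, without compound E replicate 1, to 0.0907. Some called values kept their call but changed in size. On the scale of log2(FPKM + 1), which understates low genes, TRGC1 had -0.59, TRGV2 -0.91 and IL7R -1.73, and with a pseudocount of 0.1 TRGC1 had -2.07. TRBC1 was called with limma on log2 FPKM alone (adjusted p = 0.0482 and 0.0437 at pseudocounts of 1 and 0.1), and TRBJ2-7 without the filter (edgeR adjusted p = 0.0463). Depth limits the gamma rows, the delta rows and most alpha J rows, where a library holds few counts or 0.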

Other observations

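Of 8 beta V rows on chromosome 9, copies that cannot join with the locus on chromosome 7, 4 had counts, 7 in total over the 6 libraries, the most being 3 for TRBV20OR9-2. TRBV11-2, which the table types as lincRNA and which is therefore no member, held 2, 3 and 3 counts with DMSO and 4, 3 and 1 with compound E, at the level of its low neighbours. Immunoglobulin rows, the B-cell counterpart, had counts in 126 of 414 rows, with 1367 to 1843 counts per library over all 6 libraries. The TRA rows held 669 to 790 counts in the DMSO libraries and 1933 to 2064 in the compound E libraries.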
